A study of Mus musculus with 22 samples.

Results

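Gm25353, Gm25540, Gm23444 and Gm24871 are 4 short genes without a given name, 4 of the 55335 genes in the deposited table of mouse embryo RNA-seq. The table holds FPKM, a count of fragments scaled to transcript length and library total. The genes were picked by symbol as small nuclear RNA (snRNA) genes whose measured values were higher in blastocysts after H2A.Z knockdown (KD) than in control blastocysts. The reference annotation of the same genome build, GRCm38 (mm10), types Gm23444 and Gm24871 as snRNA. It types Gm25353 and Gm25540 as miRNA, and neither aligned to a named snRNA gene. The snRNA name thus fits 2 of the 4, and the genes are called by their symbols here.

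The study asked how the histone variant H2A.Z bears on transcription in early mouse embryos. There were 22 RNA-seq libraries of 15 pooled embryos each, built by Smart-seq2 from polyadenylated RNA without keeping the strand. The embryos came from B6D2F1 females mated with B6D2F1 males. Control embryos gave 4 libraries of 2-cell embryos, 4 of morulae and 4 of blastocysts, and whether they were injected is not stated for these libraries. For the KD, siRNA against H2A.Z (20 µM, near 10 pl) went into zygotes of the same cross, which gave 3 libraries of 2-cell embryos, 3 of morulae and 4 of blastocysts. Libraries keep the replicate numbers of their titles, so that the numbers of a group need not run on. Experiments were repeated, but which pool belongs to which repeat or day is not given, so p-values measure the spread among these libraries. In such pooled samples, fewer cells of a type and less RNA per cell cannot be told apart.

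As background, snRNAs form the RNA core of the spliceosome, the machine that removes introns from pre-mRNA. U2 snRNA pairs with the branch point of the intron, and U5 snRNA holds the ends of the exons together with its loop. Mature snRNAs end without a poly(A) tail, and their genes exist in many near-identical copies and pseudogenes. miRNAs are short RNAs cut from hairpins that lower the output of matching mRNAs, although many genes annotated as miRNA by sequence alone are copies of repeated elements. H2A.Z replaces histone H2A in nucleosomes, often beside transcription starts, and in the mouse it is encoded by H2afz and H2afv.

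H2afz was examined first, as a check of the labels. Its FPKM in control libraries was 905 to 1244 in 2-cell embryos, 1158 to 1511 in morulae and 1945 to 2656 in blastocysts. In KD libraries it was 415, 139 and 112 in 2-cell embryos 1, 2 and 4, between 25.7 and 30.3 in morulae and between 53.2 and 67.2 in blastocysts. Each KD library lay below every control library of its stage, so no library went against its label. In limma, H2afz fell in morulae (log2 fold change -5.41, adjusted p = 9.71e-08) and in blastocysts (-5.19, adjusted p = 3.63e-08). At the 2-cell stage it did not pass (-2.53, adjusted p = 0.543). Without KD 2-cell replicate 1, the library with the highest remaining H2afz, it passed there too (-3.12, adjusted p = 0.000907). H2afv also fell in KD morulae, from 101 ± 8.75 (SD, n = 4) to 11.3 ± 1.51 (SD, n = 3), and in KD blastocysts, from 57.5 ± 6.40 to 15.3 ± 3.99 (SD, n = 4 each).

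Gm25353 (ENSMUSG00000096383.1) spans 121 bases at chr14:45404840-45404960 on the minus strand. Gm25540 (ENSMUSG00000080530.1) spans 121 bases at chr11:109466311-109466431, also on the minus strand. Their sequences are identical, base for base, and 6 further genes share them, which makes 8 identical genes. With a minimum identity of 90% over at least 90% of the length, the annotation holds 49 whole copies on 15 chromosomes, all of them typed miRNA. A further 21 genes hold a copy within a longer transcript. Fragments that lie wholly within a copy cannot be assigned by sequence alone, and how many of them reach unique flanking bases was not measured.

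Both loci lie on the first exon of a protein-coding gene. The first exon of Gnpnat1-208, a transcript of Gnpnat1, begins at base 48 of Gm25353 and shares 74 bases with it on the same strand. That of Gnpnat1-209 begins at base 76 and shares 46 bases. Gnpnat1 encodes the acetyltransferase of the pathway that makes UDP-GlcNAc, the sugar donor for glycosylation. In the same way, the first exon of Slc16a6-201 begins at base 73 of Gm25540 and shares 49 bases. Slc16a6 encodes a transporter of the monocarboxylate carrier family. In all 3 transcripts the first exon is untranslated and runs 35 bases past the end of the short gene, to the splice site. Gm25353 also lies opposite an intron of Styx, a gene for a pseudophosphatase on the plus strand. The libraries do not keep the strand, so reads of a short gene, of the exon it overlaps and of the opposite gene cannot be told apart.

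The bases ahead of the Gnpnat1-208 start are shown because both loci hold them, at chr14:45404914-45404960 and chr11:109466385-109466431 (GRCm38, minus strand, 5′ to 3′). Capitals mark TATAA, the core letters of a TATA box, at bases 21 to 25 of the short gene. Its first base lies 27 bases before the Gnpnat1-208 start, 55 before that of Gnpnat1-209 and 52 before that of Slc16a6-201.
Gm25353: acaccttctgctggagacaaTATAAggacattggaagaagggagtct
Gm25540: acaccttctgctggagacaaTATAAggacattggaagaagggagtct
TATAA occurs on the same strand in 4.72% of 32851 RefSeq promoter windows of 47 bases, and on either strand in 6.07%. A match is a description of these letters and shows no bound factor.

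**Figure D1:**
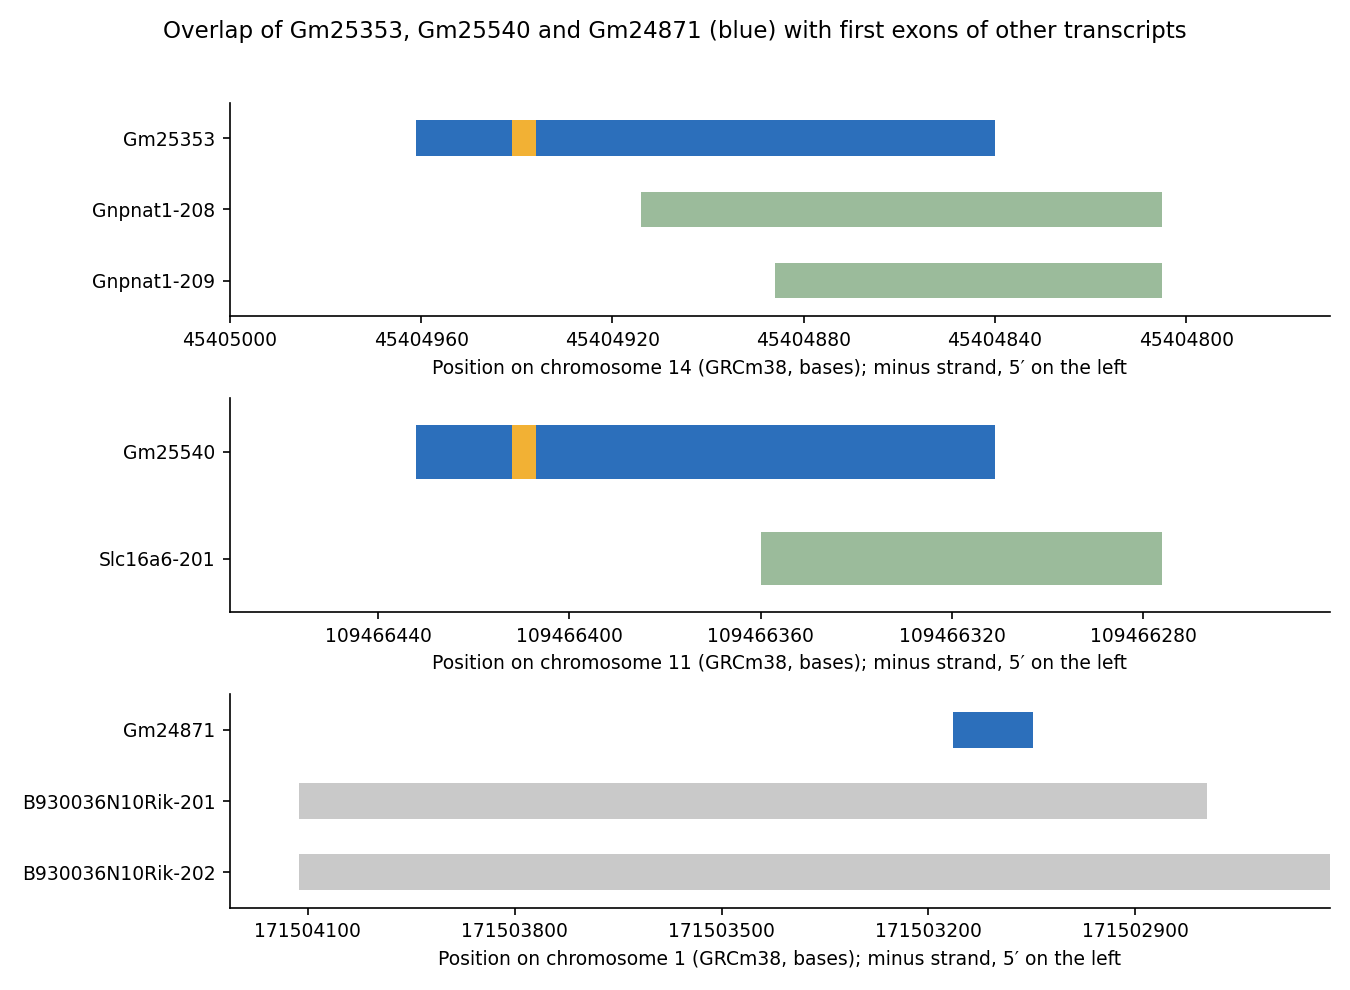
Positions on GRCm38 (in bases, with the 5′ end of the minus strand on the left) of Gm25353, Gm25540 and Gm24871 (blue) and of the first exons of transcripts that overlap them (green, untranslated exons of protein-coding genes; grey, exons of a noncoding RNA). Yellow marks TATAA, and the exon of B930036N10Rik-202 continues past the right edge.

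The FPKM of Gm25353 was 20.6, 24.3, 31.5 and 26.3 in control 2-cell embryos 1, 2, 4 and 5, and 17.0, 27.4 and 13.6 in KD 2-cell embryos 1, 2 and 4. It was 36.7, 38.1, 35.6 and 30.5 in control morulae 1, 2, 7 and 8, and 37.2, 39.6 and 28.9 in KD morulae 1, 2 and 6. It was 0.628, 1.17, 0.943 and 1.81 in control blastocysts 1, 4, 5 and 6, and 17.7, 21.4, 22.9 and 22.3 in KD blastocysts 1, 4, 5 and 6. Gm25353 was thus high in every library except those of control blastocysts. The control and KD ranges overlapped at the 2-cell and morula stages and lay far apart in blastocysts.

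In order of the mean, Gm25353 stood at 35.2 ± 5.61 (SD, n = 3) in KD morulae, 35.2 ± 3.32 (SD, n = 4) in control morulae and 25.7 ± 4.56 (SD, n = 4) in control 2-cell embryos. KD blastocysts followed at 21.1 ± 2.34 (SD, n = 4), then KD 2-cell embryos at 19.3 ± 7.15 (SD, n = 3) and control blastocysts at 1.14 ± 0.500 (SD, n = 4). In these values KD and control morulae did not differ beyond their spread, nor did KD blastocysts and 2-cell embryos of either kind. Scaled over 22 libraries, KD blastocysts (16.6 to 20.5) lay below every control 2-cell library (22.8 to 29.2). The scaled mean of KD 2-cell embryos (15.5 to 28.4) lay above that of KD blastocysts. The mean of control morulae was 30.9-fold that of control blastocysts, while the mean of KD morulae was 1.67-fold that of KD blastocysts.

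The FPKM of Gm25540 was 10.4, 11.1, 17.9 and 14.2 in control 2-cell embryos, and 11.6, 12.4 and 10.3 in KD 2-cell embryos, in the same order of replicates. It was 7.90, 4.17, 5.15 and 5.21 in control morulae and 2.16, 6.56 and 4.40 in KD morulae. It was 0.0951, 0.893, 0.250 and 0 in control blastocysts and 0.867, 4.42, 6.74 and 2.79 in KD blastocysts. Gm25540 was highest in 2-cell embryos and lower in morulae, with control and KD libraries mixed at both stages. In blastocysts the groups overlapped, since KD replicate 1 lay below control replicate 4, while the other 3 KD libraries lay above every control library. The group means ran from 13.4 ± 3.43 (SD, n = 4) in control 2-cell embryos to 0.310 ± 0.403 (SD, n = 4) in control blastocysts, with 3.70 ± 2.49 (SD, n = 4) in KD blastocysts. The mean in KD blastocysts did not differ beyond the spread from 4.38 ± 2.20 (SD, n = 3) in KD morulae.

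**Figure D2:**
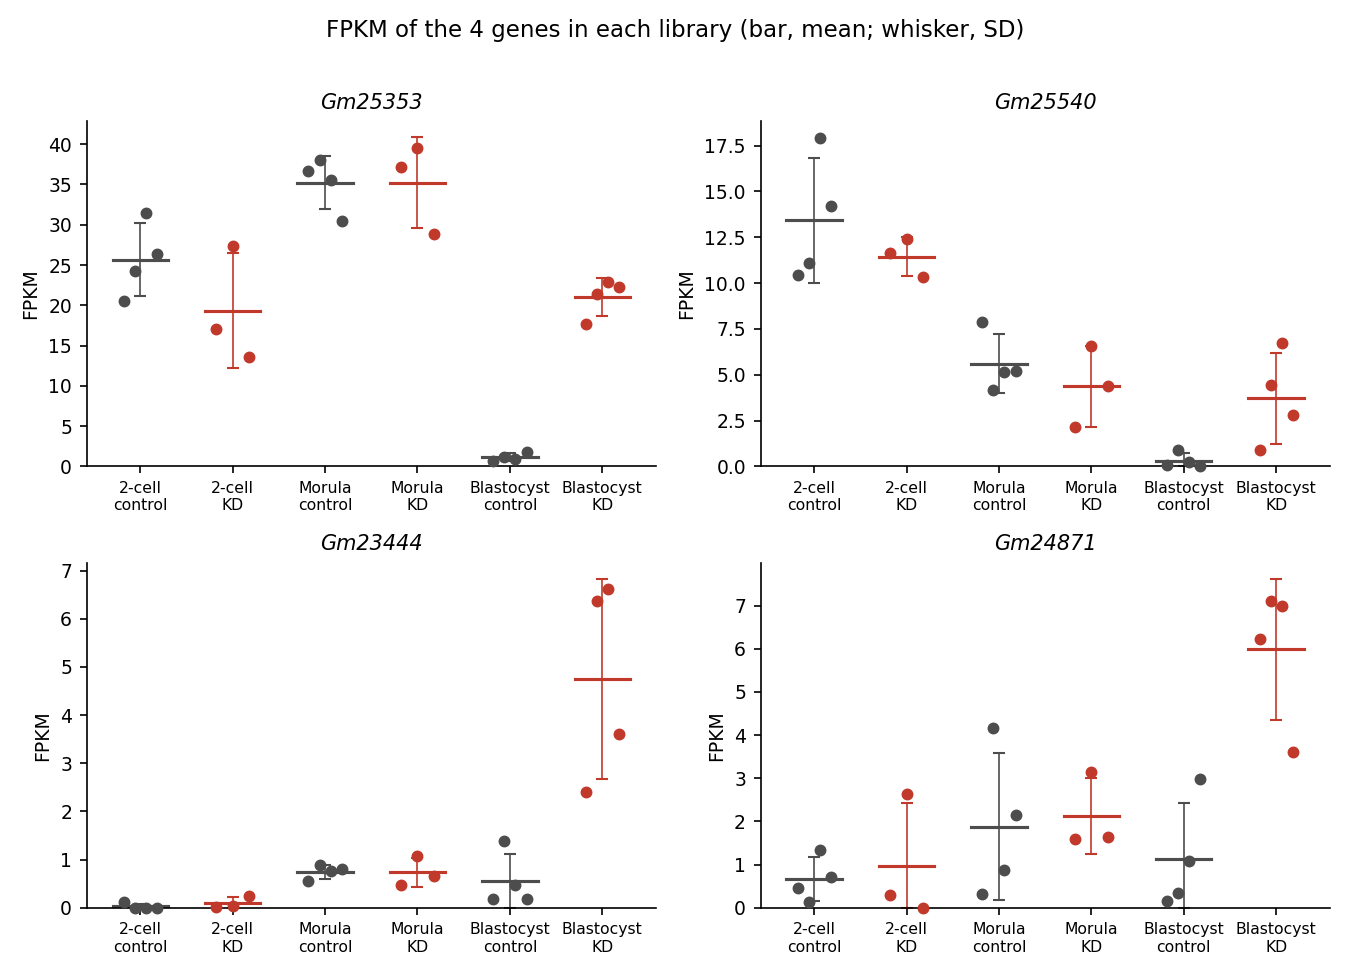
FPKM (linear axes) of Gm25353, Gm25540, Gm23444 and Gm24871 in each of the 22 libraries, by stage and treatment, with a point per library, a bar for the mean and a whisker for the SD, not drawn below 0. The mean of KD blastocysts lies above that of control blastocysts in all 4 panels, from 5.25-fold for Gm24871 to 18.5-fold for Gm25353.

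Gm23444 (ENSMUSG00000064856.1) spans 191 bases at chr11:83271498-83271688 on the plus strand. It overlaps no other annotated gene and lies 10538 bases from the pseudogene Gm11427 and 3422 bases from Slfn14. Its sequence is 99.5% identical to Rnu2-10, a named U2 gene, over 191 bases. Gm23472 is identical to Gm23444, and 14 genes in all, on 5 chromosomes, hold the sequence at 90% identity or more. The longest run of A in Gm23444 is 3 bases.

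The FPKM of Gm23444 was 0.111 in control 2-cell replicate 1, where the other 3 control libraries were listed at 0, and 0.0134, 0.0310 and 0.235 in KD 2-cell embryos. It was 0.551, 0.889, 0.759 and 0.797 in control morulae and 0.482, 1.07 and 0.669 in KD morulae. It was 0.174, 1.39, 0.468 and 0.183 in control blastocysts and 2.41, 6.36, 6.62 and 3.62 in KD blastocysts. Gm23444 was at or near 0 in 2-cell embryos of both kinds and low in morulae, where the ranges overlapped. In blastocysts every KD library lay above every control library. The mean of KD blastocysts was 4.75 ± 2.07 (SD, n = 4) and that of control blastocysts 0.553 ± 0.573 (SD, n = 4). The means of control blastocysts and of control morulae, at 0.749 ± 0.143 (SD, n = 4), did not differ beyond their spread.

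Gm24871 (ENSMUSG00000094668.1) spans 116 bases at chr1:171503048-171503163 on the minus strand. It lies wholly within the first exon of 2 transcripts of B930036N10Rik, a noncoding RNA on the same strand, and 315 bases from Alyref2, which reads the other way. Its sequence is 94.0% identical to Rnu5g, a named U5 gene, and 5 genes, Gm24871 included, are whole copies of it at 90% identity or more.

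The FPKM of Gm24871 was 0.462, 0.128, 1.33 and 0.708 in control 2-cell embryos and 0.290, 2.64 and 0 in KD 2-cell embryos. It was 0.316, 4.17, 0.878 and 2.15 in control morulae and 1.59, 3.15 and 1.63 in KD morulae. It was 0.151, 0.349, 1.08 and 2.99 in control blastocysts and 6.22, 7.12, 6.99 and 3.61 in KD blastocysts. Gm24871 varied widely within groups, and single control libraries of morulae and blastocysts reached the level of KD morulae. In blastocysts every KD library lay above every control library, with means of 5.99 ± 1.63 and 1.14 ± 1.29 (SD, n = 4 each). The means of the 5 other groups lay between 0.658 and 2.12. Every KD morula library lay above every control 2-cell library, a difference of stage and treatment at once that was not tested.

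The read depth behind these values is not given with FPKM, so it was read from their low end. For 13568 genes of 1 exon and at least 300 bases, FPKM times length gathered on multiples of a smallest step, taken as 1 fragment. That step was 34.5 to 66.5 over the libraries, where small steps mean deep sequencing. It was 44.8 to 66.5 in control and 46.5 to 57.5 in KD blastocysts. Between 14.4% and 26.5% of low values lay within 1.5% of a whole step, against a median of 4.11% to 4.81% over all steps tried. Most low values thus lay off the steps, and the conversion is rough. On this scale the median of Gm25353 was 49.2 fragments in KD and 2.05 in control blastocysts. The medians in KD and control blastocysts were 8.26 and 0.389 for Gm25540, 18.1 and 1.14 for Gm23444, and 15.9 and 1.38 for Gm24871. In 2-cell embryos Gm23444 had a median of 0 fragments in control and 0.124 in KD libraries. A difference of Gm23444 at that stage was not detectable at this depth.

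The blastocyst comparison asks what the KD does at the last stage sampled. The values of that comparison chose the 4 genes, so their differences are a description without a test. On log2(FPKM + 1), a scale that understates the change of low genes, the log2 fold change was 3.39 ± 0.19 (SE) for Gm25353, 1.70 ± 0.34 for Gm25540, 1.87 ± 0.28 for Gm23444 and 1.86 ± 0.34 for Gm24871. All 4 passed the filter on low values (3 or more libraries with FPKM from 1 upward), although none of the 4 control libraries of Gm25540 reached 1. As the ratio of mean FPKM, KD stood 18.5-fold over control for Gm25353, 12.0-fold for Gm25540, 8.59-fold for Gm23444 and 5.25-fold for Gm24871. KD and control libraries did not overlap for 3 of the 4 genes. Of the 11828 genes tested, 14.6% had every KD library above every control library, 6.06% were upregulated and 7.69% were downregulated. Nothing is read from the count of members against these shares, since the choice of genes fixed it.

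The morula comparison used libraries that had no part in the choice. To be called a DEG, a gene needed adjusted p < 0.05 and a log2 fold change beyond 1 in size. Of 10989 genes tested with limma, 0.992% were upregulated and 2.53% downregulated. Of the 4 genes, 3 passed the filter and 0 were called in either direction. Gm25353 differed by 0.11 ± 0.15 (log2 fold change ± SE, adjusted p = 0.637), Gm25540 by -0.25 ± 0.28 (adjusted p = 0.584) and Gm24871 by 0.33 ± 0.41 (adjusted p = 0.616). Gm23444 was below the filter and differed by 0.03 ± 0.16 when all genes with a value were fitted (adjusted p = 0.937). The sign for Gm25353 turned without scaling (-0.01), and that for Gm25540 turned without KD morula 1 (0.12). The number of upregulated genes in morulae, 109, became 218 with a replicate block, 205 with a pseudocount of 0.1, 71 without scaling and 36 without the filter, so the shares above depend on the setting. The block rests on the 2 pairs of morula libraries with the same replicate number, and unpaired libraries add nothing to its KD effect.

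At the 2-cell stage 0 of 12160 genes were called with limma (0%), while 701 had an unadjusted p under 0.05. Of the 4 genes, 2 passed the filter. Gm25353 differed by -0.37 ± 0.21 (adjusted p = 0.828) and Gm25540 by -0.12 ± 0.18 (adjusted p = 0.924). The KD effect in morulae minus that in 2-cell embryos was tested as an interaction, which called 1.25% of 14605 genes and 0 of the 3 genes that passed the filter. It was 0.48 ± 0.26 for Gm25353 (adjusted p = 0.424), -0.13 ± 0.35 for Gm25540 (adjusted p = 0.908) and 0.24 ± 0.62 for Gm24871 (adjusted p = 0.906). The share of 1.25% depends on the setting, since 0 genes were called with a replicate block. That block rests on 3 pairs of 2-cell libraries and 2 pairs of morula libraries. Without single libraries, 26 to 78 genes were called up and 52 to 201 down. A difference between the KD effects in blastocysts and in the earlier stages was not tested, because the blastocyst values chose the genes.

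Control morulae were compared with control 2-cell embryos, 2 groups outside the choice. Of 13655 genes, 32.1% were upregulated and 30.1% downregulated in limma. Of the 3 genes that passed the filter, 1 fell and 0 rose. Gm25540 fell by 1.13 (SE 0.18, adjusted p = 9.02e-05), with 4 of 4 morula libraries below every 2-cell library. Its fall did not reach the fold threshold without control morula 2 (-0.97) or with a replicate block (-0.95). That block rests on 2 pairs of libraries with the same replicate number. Gm25353, with the same sequence, differed by 0.45 ± 0.15 (adjusted p = 0.0154) and stayed under the fold threshold. Gm24871 differed by 0.67 ± 0.36 (adjusted p = 0.104), and it passed without control morula 1 (1.01, adjusted p = 0.0122). Gm23444, below the filter, was 0.75 ± 0.0981 higher in morulae when all genes with a value were fitted (adjusted p = 0.000414).

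The genes that overlap the short genes are given as a description in blastocysts, because they share bases with genes chosen there. Gnpnat1 had FPKM of 77.2, 84.0, 113 and 84.7 in control blastocysts and 240.0, 232, 236 and 233 in KD blastocysts. KD blastocysts lay at the level of morulae, where control libraries had a mean of 231 ± 18.6 (SD, n = 4) and KD libraries 198 ± 26.7 (SD, n = 3). In 2-cell embryos Gnpnat1 was lower, 75.6 ± 11.5 (SD, n = 4) in control embryos against 60.7 ± 14.6 (SD, n = 3) after KD. Gm25353 did not share that low 2-cell level, and the correlation of log2(FPKM + 1) between the genes was 0.42 (Pearson r over 22 libraries). With limma, Gnpnat1 rose from control 2-cell embryos to control morulae (log2 fold change 1.60, adjusted p = 2.69e-06) and was not called between KD and control morulae (-0.10, adjusted p = 0.666).

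Slc16a6 followed Gm25540 more closely. Its FPKM was 1.20, 2.32, 3.20 and 1.93 in control blastocysts and 8.79, 11.2, 17.6 and 13.8 in KD blastocysts, so that the groups did not overlap. Its means were 40.9 ± 16.6 and 19.2 ± 4.87 (SD, n = 4 each) in control 2-cell embryos and morulae, and 22.7 ± 11.04 and 17.4 ± 2.95 (SD, n = 3 each) in KD ones. The correlation with Gm25540 was 0.91 over the 22 libraries, which share stage and depth between the genes. With limma, Slc16a6 fell from control 2-cell embryos to control morulae (-1.004, adjusted p = 0.00213), a value at the fold threshold that 5 of the 8 fits without 1 library did not reach. It was not called between KD and control at the 2-cell stage (-0.81, adjusted p = 0.828) or in morulae (0.00, adjusted p = 0.994).

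Styx, opposite Gm25353, had means of 4.99 ± 1.27 in control and 9.35 ± 1.12 in KD blastocysts (SD, n = 4 each), and the groups did not overlap. B930036N10Rik, around Gm24871, had means of 0.797 ± 0.276 in control and 2.69 ± 1.13 in KD blastocysts (SD, n = 4 each), again without overlap. It was highest in 2-cell embryos, 8.24 ± 4.43 (SD, n = 4) in control embryos against 7.49 ± 1.94 (SD, n = 3) after KD, where Gm24871 was low. Its correlation with Gm24871 was -0.14 over the 22 libraries. Of the nearest genes that do not overlap, Amz2 beside Gm25540 fell in KD blastocysts (log2 fold change -1.39, adjusted p = 0.000305). Psmc6 and F11r, beside Gm25353 and Gm24871, were not called in any KD comparison. Gm11427 and Alyref2, beside Gm23444 and Gm24871, were lower in KD blastocysts without reaching the fold threshold (-0.93 and -0.64). Gm34250, Arsg and Slfn14 were below the filter there.

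**Figure D3:**
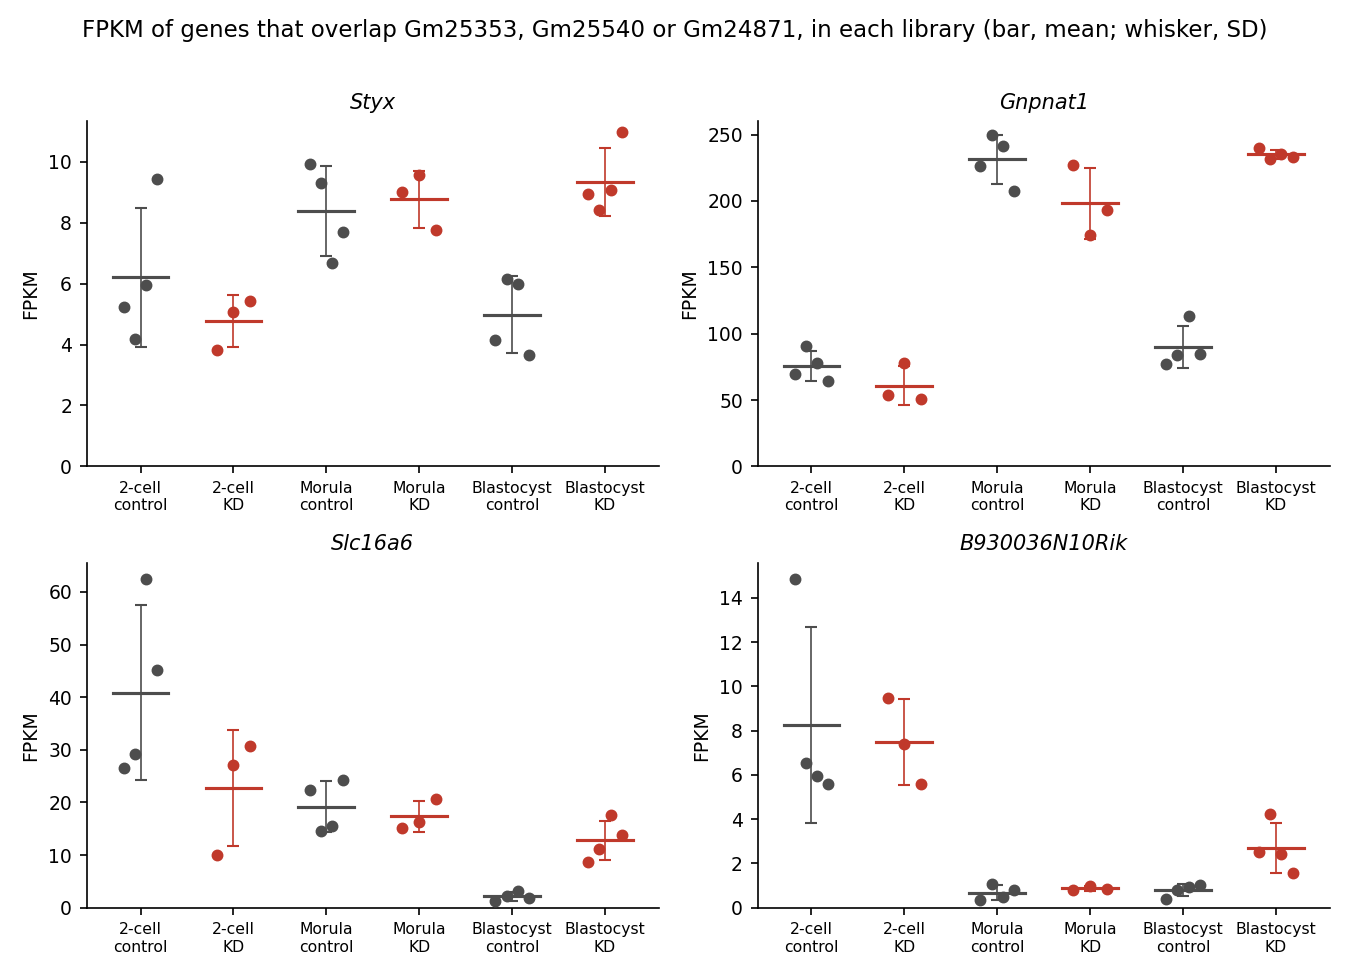
FPKM (linear axes) of Styx, Gnpnat1, Slc16a6 and B930036N10Rik in each of the 22 libraries, by stage and treatment, with a point per library, a bar for the mean and a whisker for the SD. KD blastocysts lie above control blastocysts in all 4 panels, and Gnpnat1 in KD blastocysts reaches the level of morulae.

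The 6 further genes identical to Gm25353 were highest in 2-cell embryos, with control means from 0.689 for Gm24092 to 5.62 for Gm22992. In morulae and blastocysts of either kind their means stayed at or below 0.842, while Gm25353 was at 35.2 in morulae. The 47 whole copies other than Gm25353 and Gm25540 summed to 190 ± 28.0 FPKM in control 2-cell embryos, 47.5 ± 10.95 in control morulae and 12.7 ± 3.58 in control blastocysts (SD, n = 4 each). In KD libraries the sums were 196 ± 27.8, 44.2 ± 5.10 (SD, n = 3 each) and 38.2 ± 7.88 (SD, n = 4). Of the 4 copies tested in blastocysts, Gm26298 and Gm22468 were higher in KD (log2 fold changes 2.16 and 1.44, named after their values were seen), against 6.06% of all genes. The other copies were below the filter there, so this count depends on the filter. In morulae 1 of 5 tested, Gm22468, was upregulated (1.08), against 0.992% of all genes. Gm26298, 99.2% identical to Gm25353, rose from control 2-cell embryos to control morulae (2.97), unlike most copies. It alone had a mean of 27.7 in control morulae, 18.0 in KD morulae and 18.4 in KD blastocysts, a large share of the sums.

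Further genes begin in the same sequence. In the annotation, 160 transcripts of 135 genes, 63 of them protein-coding, start within a copy of at least 85% identity over at least 40 bases. The start lay between bases 14 and 80 of the Gm25353 sequence, with a median of 50, against bases 48, 73 and 76 for the Gnpnat1 and Slc16a6 transcripts. This set was made after the data were seen and has no test. Without Gnpnat1 and Slc16a6, 47 of the protein-coding genes were tested in blastocysts, and 23 were upregulated and 2 downregulated, against 6.06% and 7.69% of all genes. The median log2 fold change was 0.84, against 0.00 over all genes. Gm4565, Gm4513, Esp24 and Gm8994 had the highest values (3.24, 3.24, 3.16 and 2.04). Their means in control blastocysts were 0.463, 0.447, 0 and 0.408 FPKM, so they passed the filter through KD libraries. Genes low in both groups were not tested, so the counts and the median depend on the filter. Nxf7 and Platr25 were the genes that fell (-1.31 and -1.57).

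In morulae 5 of the 52 protein-coding genes of this set that were tested were upregulated, namely Gm4565, Gm4513, Esp24, Dhtkd1 and Ccser1, and 0 were downregulated, against 0.992% and 2.53% of all genes. In 2-cell embryos 0 of 56 were called. From control 2-cell embryos to control morulae, 29 of 58 protein-coding genes fell and 13 rose, against 30.1% and 32.1% of all genes, with a median of -1.06. In the whole set, noncoding genes included, 89 of 123 fell and 14 rose there (median -2.02). In blastocysts 64 of 133 genes, Gnpnat1 and Slc16a6 left out, passed the filter. Of these, 35 were upregulated and 2 downregulated (median 1.15), against 6.06% and 7.69% of all genes. Several of these genes are near-identical to each other, such as Gm4565 and Gm4513, so they are not separate observations. The table gives a value per gene and not per transcript, so whether the reads came from the start inside the copy was not measured.

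Copies of the U2 sequence were higher in KD blastocysts along with Gm23444. Gm23472, with the identical sequence, had means of 0.429 ± 0.333 in control and 2.80 ± 1.30 in KD blastocysts (SD, n = 4 each). Rnu2-10 had 4.95 ± 0.468 and 12.3 ± 3.65 (SD, n = 4 each). The 13 copies other than Gm23444 summed to 29.6 ± 4.94 FPKM in control and 79.2 ± 16.9 in KD blastocysts (SD, n = 4 each). Of 10 tested there, 7 were upregulated (6.06% of all genes) and 0 downregulated, with a median of 1.15. Copies low in both groups were not tested, so the count and the median depend on the filter. The copies are near-identical to Gm23444, which was chosen in these libraries, so they are not separate observations. In morulae the sums were 22.0 ± 2.13 (SD, n = 4) in control libraries and 31.6 ± 4.32 (SD, n = 3) after KD, without overlap. There 7 of 8 copies were above 0, against 51.6% of all genes, with a median of 0.46. Short genes leaned the same way, since 349 of 473 genes of at most 200 bases, without the 4 members, were above 0 in morulae. Of the 8 copies, 1 was upregulated, Gm22973 (1.23), against 0.992% of all genes. Rnu2-10 had an adjusted p of 0.0499 in limma in morulae with a log2 fold change of 0.68, under the fold threshold. Copies of the U5 sequence were lower, and the 4 other than Gm24871 summed to 0.765 ± 0.641 in control and 3.54 ± 1.80 in KD blastocysts (SD, n = 4 each). Rnu5g itself was below the filter in blastocysts.

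The summed FPKM of other genes typed snRNA in blastocysts was 98.6, 93.6, 112 and 110.1 in control libraries and 181, 237, 211 and 199.7 in KD libraries. Of 1381 such genes, without Gm23444 and Gm24871, 37 were tested. Of these, 15 were upregulated and 0 downregulated, against 6.06% and 7.69% of all genes. Genes low in both groups were not tested, so the counts and the median of this class depend on the filter. Above 0 were 32 of the 37, against 50.3% of all genes, with a median log2 fold change of 0.94. Of genes of at most 200 bases, without the 4 members, 349 of 494 were above 0 in blastocysts, with a median of 0.23. The highest 3 of the genes typed snRNA were Gm24497, Gm25360 and Gm22973 (1.72, 1.70 and 1.43), all copies of the U2 sequence. The lowest 3 were Gm22107, Gm22392 and Gm25184 (-0.82, -0.68 and -0.32), and none of them was called. Gm22107 was downregulated with a pseudocount of 0.1 (-1.19, adjusted p = 0.0179) and without KD blastocyst 4 (-1.06, adjusted p = 0.0012). Of the 13 named spliceosomal and U7 snRNA genes, 7 were tested and 5 rose, namely Rnu1b1, Rnu1b2, Rnu1a1, Rnu12 and Rnu2-10 (1.33, 1.24, 1.16, 1.14 and 1.13). Rnu12 did not reach the fold threshold without KD blastocyst 4 (0.99). In morulae the sums were 122.3, 117.8, 123.8 and 122.5 in control and 156.2, 154.8 and 159.5 in KD libraries, again without overlap. There 1 of 29 genes typed snRNA was upregulated, against 0.992% of all genes. Above 0 were 27 of 29, against 51.6% of all genes, with a median of 0.35. Of genes of at most 200 bases, without the 4 members, 349 of 473 were above 0 in morulae, with a median of 0.22. In 2-cell embryos 0 of 25 genes typed snRNA were called. These genes come from the blastocyst comparison that chose Gm23444 and Gm24871, and part of them are copies of the same sequences. How far they share reads was not measured.

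Genes for proteins that make and assemble snRNAs were counted beside them in blastocysts, where 6.06% of all genes tested were upregulated and 7.69% downregulated. Among the genes of snRNA transcription, 1 of 11 tested was upregulated, Zfp143 (1.41), a transcription factor of snRNA promoters. In the Integrator complex, which cuts the 3′ end of snRNAs, it was 1 of 14, the catalytic subunit Ints11 (1.20). In the SMN complex and Sm assembly it was 2 of 12, Smn1 (1.47) and Gemin5 (1.13), which binds snRNAs. Among the proteins of single snRNPs it was 1 of 21, Snrnp70 (1.17) of the U1 particle. In the Cajal body it was 1 of 4, Nolc1 (1.24), and in snRNA trimming and decay 2 of 18, the exosome subunits Exosc4 (1.28) and Exosc6 (1.05). It was 0 of 8 for export, cap and import, 0 of 8 for the Sm core, 0 of 7 for the LSm ring and 0 of 3 for the 7SK particle. None of these lists had a downregulated gene in blastocysts, and none had a called gene in morulae except Toe1 (-1.19), an exonuclease that trims snRNA ends. In morulae 0.992% of all genes were upregulated and 2.53% downregulated. The calls of Snrnp70 and Exosc6 were lost without single libraries. Smn1 lost its call only without the filter (1.47, adjusted p = 0.0635).

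The genes most like each member over the 22 libraries, out of 15696 compared, are given as a description. For Gm25353 they were Gm49064, Gm12184 and Nolc1 (Pearson r of 0.97, 0.96 and 0.96). For Gm25540 they were Cphx1, Eloa and Nek2 (0.94 each). For Gm23444 they were Gm24497, the identical copy Gm23472 and Tap1 (0.91, 0.90 and 0.90), and for Gm24871 they were Rnu3b2, Tspan13 and Rnu1a1 (0.81, 0.80 and 0.78). Gm25353 and Gm25540 correlated at 0.75 and Gm23444 and Gm24871 at 0.73. Across the 2 pairs r lay between -0.21 and 0.26. These libraries include the blastocysts that chose the genes. The pair typed miRNA was high in 2-cell embryos or morulae, and the pair typed snRNA was highest in KD blastocysts.

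Sums of 2-cell and lineage markers differed between KD and control blastocysts, and their part in the values of the 4 genes was not tested. The 5 markers of the 2-cell stage summed to 0.787, 0.964, 0.291 and 0.716 FPKM in control and 3.08, 14.0, 3.30 and 9.55 in KD blastocysts, against 210 ± 32.3 (SD, n = 4) in control 2-cell embryos. All 5 were above 0 in every KD blastocyst library and in 2 of the 4 control ones. Their most abundant gene, Zfp352, rose in KD blastocysts (1.56), from a mean of 0.370 in control to 3.28 in KD. It was the only 1 of the 5 that passed the filter there, so the others were not tested. The 11 lineage markers of the blastocyst summed to 1113, 1608, 1529 and 1132 in control and 718, 890.4, 1075 and 805 in KD blastocysts, all 11 above 0 in each library. Their most abundant gene, Krt18, was the only 1 of 9 tested that was called (-1.02), and 4 of the 9 were above 0. Of all genes tested in blastocysts, 7.69% were downregulated, 6.06% upregulated and 50.3% above 0. The call of Krt18 was lost in 3 of 8 fits without 1 library, with values from -0.98 to -0.93. Pou5f1, Nanog and Gata6 were higher in KD blastocysts, with means of 25.7 against 14.0, 161 against 132 and 19.0 against 10.6, and were not called. In KD morulae the 11 lineage markers summed to 135 ± 26.7 (SD, n = 3) against 263 ± 30.4 (SD, n = 4) in control, and Nanog fell (-2.23). Sums of the 7 cumulus and granulosa cell markers were 0 to 0.0579 in blastocyst libraries, and those of the 5 sperm markers 0.637 to 1.77. Genes typed rRNA, nearly all of it CT010467.1, summed to 478, 1969, 1540 and 2899 in control and 2642, 4707, 5336 and 7492 in KD blastocysts. Their part was not tested either.

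Several limits apply. The 4 genes were chosen by the blastocyst values, so the blastocyst differences describe these 8 libraries and were not tested. By the rough fragment scale, Gm23444 and Gm24871 rest on a median of at most 18.1 fragments in any group, and in control blastocysts Gm25353 and Gm25540 rest on fewer still. Copies, overlapping exons and the missing strand leave the origin of the reads unknown. Libraries started from polyadenylated RNA, so mature snRNA without a tail was measured poorly or not at all, and its amount was not measured. The study also examined H2A.Z protein, H2A.Z on chromatin and cell numbers, which were not analysed here. In the paper, far fewer KD than control embryos formed blastocysts, while development up to the morula was unaffected. How the embryos of the KD blastocyst libraries were picked is not stated. Whether such a selection or a delay bears on the blastocyst values was not tested. With 3 or 4 libraries per group, small differences in 2-cell embryos and morulae would be missed.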

How the data were processed

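The authors aligned reads to mm10 with STAR and deposited FPKM per gene from StringTie (2.1.4 in the submitters' processing notes), which divide by gene length and library total. Their DESeq2 results on counts were not used. Of 55335 genes, 54587 matched the GENCODE annotation of GRCm38 in the same identifier version. Each library was scaled by its median ratio to the gene-wise geometric means. A gene was tested where 3 or more libraries of the comparison reached FPKM 1, on log2(FPKM + 1) with limma 3.58.1 in R 4.3.3 (lmFit, eBayes with a trend, no covariates), with Benjamini-Hochberg adjustment over all genes tested. The steps were checked on simulated data. Below the filter, adjusted p came from a fit of all genes above 0. Copies were aligned with blastn 2.17.0 and read with Python 3.11.15 and biopython 1.88. Tables used numpy 2.4.6 and pandas 2.3.3, and figures matplotlib 3.10.9. Promoters came from RefSeq on GRCm38.

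Named genes were the 4 genes, H2afz, H2afv, overlapping and nearest genes, up to 4 DEGs per list with the largest blastocyst change, all genes of some counts up to 5, closest and identical copies, the 3 highest and lowest other snRNA genes, and the 3 most correlated genes per member. Lists covered snRNA making, assembly and decay, named snRNA genes, stage, lineage, cumulus and sperm markers, RNA classes and histone genes. The members and lists were chosen with earlier results of these data known. Alternatives were another pseudocount, no filter, no scaling, a replicate block, leaving out each library and, chosen after seeing the data, factors with a geometric mean of 1. The block compares libraries of the same replicate number, and libraries without such a partner add nothing to its effect. Genome sequence beyond transcripts was not analysed here.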

Additional observations from a re-analysis of the deposited data

Results flagged for a closer look

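In 40 groups of 4 libraries, over 10 genes, Dixon's criterion marked 2 values, of different genes but in the same library, as far from the others of their group. By chance about 1 in 20 groups is marked. Gm23444 was at 0.111 FPKM in control 2-cell replicate 1 and listed at 0 in the other 3 libraries, which is under 1 fragment (0.491). B930036N10Rik, the RNA around Gm24871, was at 14.9 FPKM in the same library, control 2-cell replicate 1, against 5.58 to 6.55 in the other 3.

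The KD effect differed between morulae and 2-cell embryos for H2afz, by -2.88 on the log2 scale (interaction in limma, adjusted p = 0.0089), and for H2afv, by -2.71 (adjusted p = 3.02e-05). With a replicate block neither passed (-2.73, adjusted p = 0.135, and -2.63, adjusted p = 0.0974) and 0 genes were called. That block rests on 3 pairs of 2-cell libraries and 2 pairs of morula libraries. Without the filter H2afz did not pass (-2.88, adjusted p = 0.0536). The differences themselves stayed about as large. None of Gm25353, Gm25540 and Gm24871 was called in this comparison, and Gm23444 was below the filter.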

How the results depend on the processing

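Outside the blastocyst comparison, alternatives gave 153 values of Gm25353, Gm25540 and Gm24871. Of these, 145 kept their direction and call, 5 reversed and 3 crossed a threshold. Gm23444 was below the filter there and is not among them. In blastocysts, where the choice of genes fixed the direction, a pseudocount of 0.1 gave 4.18 for Gm25353, 3.41 for Gm25540, 3.16 for Gm23444 and 2.89 for Gm24871. In morulae, Gm25353 was at -0.00676 without scaling, and Gm25540 ranged from -0.54 to 0.12 when single libraries were left out, above 0 only without KD morula 1. Slc16a6 in morulae was at -0.12 without scaling, at -0.0350 with a replicate block, and from -0.15 to 0.15 when single libraries were left out. B930036N10Rik at the 2-cell stage was at -0.0460 without scaling, at -0.12 with the block, and from -0.16 to 0.32 when single libraries were left out. In the interaction with single libraries left out, Gm24871 ranged from -0.13 to 0.79, below 0 without KD 2-cell embryo 4 or control morula 1, and Gm25540 from -0.43 to 0.23, above 0 without KD morula 1. From control 2-cell embryos to morulae, Gm25540 missed the fold threshold with the block (-0.95), and Slc16a6 missed it with the block (-0.77) and without scaling. H2afz in this comparison was at -0.18 with the block. In blastocysts, Gm25184 ranged from -0.68 to 0.0261 over single libraries left out, above 0 without KD 5. Krt18, Snrnp70, Exosc6 and Rnu12 lost their call without single libraries, Smn1 and Snrnp70 without the filter. Upregulated and downregulated genes in morulae were 205 and 584 with a pseudocount of 0.1, 36 and 133 without the filter, and 71 and 424 without scaling, and 218 were upregulated with the block. Without scaling 14.3% of morula DEGs were upregulated against 28.2% with it, and the median of all genes shifted by -0.10; the cause was not tested. Blastocyst DEGs with a pseudocount of 0.1 were 1107 and 1370. Genes with an interaction were 24 up and 48 down without the filter, 204 down without scaling and 0 up and 0 down with the block, and 26 to 78 up and 52 to 201 down when single libraries were left out. Downregulated 2-cell genes were 0 to 3 when single libraries were left out, 3 without KD 2-cell embryo 1. The interaction of H2afz was -2.88 without the filter (adjusted p = 0.0536) and -2.73 with the block (adjusted p = 0.135). That of H2afv was -2.63 with the block (adjusted p = 0.0974). Scaled over 22 libraries, Gm25353 in control morulae was 31.7 FPKM and Gm25540 in KD 2-cell embryos 12.6. As for a pairing by replicate number, 5 of 6 libraries correlated best with that of their own number at the 2-cell stage, 2 of 4 in morulae, 3 of 8 in blastocysts and 0 of 4 between stages, so no pairing was assumed. Morula libraries did form sets, with controls 1 and 2 beside KD 1 and 2 (0.0944 to 0.181). Controls 7 and 8 went with KD 6 (0.185 and 0.347), and correlations across the sets were negative (-0.278 to -0.0946). No fit took account of such sets.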

Other observations

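Other short RNA classes in the same comparisons are given as counts of limma, beside 6.06% upregulated and 7.69% downregulated of all genes tested in blastocysts and 0.992% and 2.53% in morulae. Genes low in both groups were not tested, so these counts depend on the filter. Among genes typed snoRNA, 15 of 179 tested were upregulated and 1, Gm23713, downregulated in KD blastocysts, and 3 of 179, Snord107, Gm25894 and Snord104, were upregulated in KD morulae. Among genes typed miRNA, without Gm25353 and Gm25540, 11 of 137 were upregulated and 3 downregulated in blastocysts, the latter Mir147, Mir292b and Mir351 (-1.97, -1.48 and -1.15), and in morulae 4 of 132 were upregulated (Mir92-1, Gm22468, Gm24574 and Mir7067) and 1 downregulated (Mir5116). Genes typed scaRNA had 0 of 2 called, and those typed misc_RNA had 2 of 19 upregulated, Gm27927 and Rny1 (2.098 and 1.06), in blastocysts and 1 of 18 downregulated, Gm24757 (-1.03), in morulae. Of genes of at most 200 bases, without the 4 members, 52 of 494 were upregulated and 5 downregulated in blastocysts, and 15 of 473 were upregulated and 2, Gm21028 and Mir5116, downregulated in morulae. Of histone genes, 1 of 51 was upregulated, Hist2h3c2 (1.13). CT010467.1, typed rRNA, was upregulated in KD morulae and KD blastocysts (1.40 and 1.73). Genes named here were chosen after their values were seen.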
